A study of Rattus norvegicus with 9 samples.

Results

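Interferon-inducible GTPases are large GTP-binding proteins that cells make in quantity after contact with interferon. They form the family of immunity-related GTPases and the family of guanylate-binding proteins. Both act inside the cell, where they settle on the vacuoles and membranes that surround intracellular microbes, break them open and help to start inflammasome signalling. Their genes are switched on through the Jak and Stat proteins, and Stat and Irf factors bind short promoter sequences known as the gamma-activated site and the interferon-stimulated response element. They are best known from infected macrophages, and endothelial cells and other cells of the heart can also make them.

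The 10 genes described here were chosen by name from the genes listed in either of 2 deposited tables of cardiac gene expression. The names are Iigp1, Gm4841, Irgm1, Irgm2 and Igtp, which are 5 immunity-related GTPases, and Gbp2, Gbp3, Gbp5, Gbp6 and Gbp7, which are 5 guanylate-binding proteins. They are 10 of the 5760 genes listed in either table. The names were picked from the measured values themselves, because these genes were already known to differ between the Cal and model libraries, so all their values in that comparison are a description and carry no test. All 10 were listed in the table of Cal and model, which holds 4288 genes, and 1 of them, Gbp5, in the table of model and sham, which holds 2458 genes. Each table lists only genes that passed the authors' own test, so a gene that is not listed has no value here and may have any level.

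The study compared hearts of male Sprague Dawley rats in 3 groups of 3 animals. Rats of the Control group had a sham operation, and rats of the Model group had the left anterior descending coronary artery tied to bring on heart failure. Rats of the Cal group had the same ligation and then received calycosin, an isoflavone of Astragalus roots, by mouth every day. Each library was made from the poly(A) RNA of 1 heart, and how much infarcted, border or remote tissue entered each sample is not given in the sources used here. Cardiomyocyte markers were present as the tissue label says, since 4 of 12 (Myh6, Ryr2, Atp2a2 and Ckm) were listed in the table of model and sham, and their summed normalised read count lay between 467578 and 630924 in its 6 libraries.

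The headings of the deposited columns go against each other, and every direction below depends on this. In the table of Cal and model, the column of means named Cal equals the average of the 3 columns of samples headed Model in 4288 of 4288 genes, and the column of means named Model equals the average of the columns headed Cal. In the table of model and sham, the sample columns are headed Cal and Con, and the mean named Model equals the mean of the columns headed Cal in 2458 of 2458 genes. The Cal-headed libraries held the same reads in both tables for 986 of 986 shared genes. Libraries are called Cal-headed, Model-headed or Con-headed here, by the heading of their sample column. Going by the mean columns, the Cal-headed libraries would be the model hearts and the Model-headed ones the calycosin-treated hearts, and every direction between them would turn over. The name of the table of model and sham goes with its mean columns, and by its sample columns it would hold no model heart. The files do not settle which naming is right.

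Values are normalised read counts, that is, reads on a gene divided by 1 size factor per library. The reads on the listed genes numbered between 2860826 and 3998471 per library in the table of Cal and model, and between 3270460 and 4659882 in that of model and sham. Log2 fold changes and their standard errors (SE) were fitted by limma on log2(normalised count + 1). A gene was called at a Benjamini-Hochberg adjusted p below 0.05 and a log2 fold change beyond 1, and since the tables hold only genes that had already passed a test, no p-value is given for any gene.

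All 10 GTPases were lower in the Cal-headed libraries than in the Model-headed ones, and in all 10 the highest Cal-headed library lay below the lowest Model-headed one. By the names of the mean columns, they were higher in the Cal hearts. All 10 were called lower, beside a background of 31.6% of the listed genes called lower and 28.4% called higher, and nothing is read from this count because the genes were chosen from these values. Groups did not overlap, with the Cal-headed libraries below, in 52.5% of the listed genes, and above in 45.7%. The median log2 fold change of the 10 genes was -3.47 (range -8.02 to -2.79), beside -0.52 over all 4288 genes. It was -3.73 for the 5 immunity-related GTPases and -3.22 for the 5 guanylate-binding proteins.

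**Figure D1:**
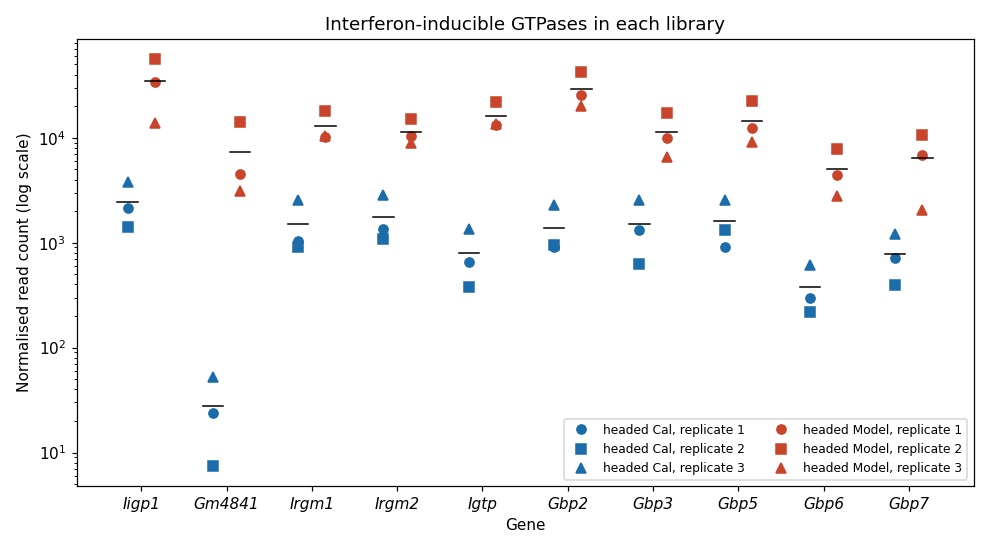
Normalised read count (log scale) of the 10 genes in the 3 Cal-headed libraries (blue) and the 3 Model-headed ones (red), with a black bar at each group mean and a marker shape for each replicate number. In every gene the 3 blue points lie below the 3 red points, with the widest gap for Gm4841 and the narrowest for Gbp7.

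The effector Iigp1 is the immunity-related GTPase that loads onto the vacuole of Toxoplasma parasites and breaks it. Its normalised read counts were 2143, 1400 and 3753 in the Cal-headed libraries and 33729, 56092 and 13810 in the Model-headed ones. The lowest Model-headed library was 3.68 times the highest Cal-headed one, and the log2 fold change was -3.73 (SE 0.54). Iigp1 (ENSMUSG00000054072) had the highest mean count of the 10 in both groups, at 2432 ± 1202 and 34544 ± 21153 (SD, n = 3 each). In library Model 3, however, Gbp2 (20190) stood above Iigp1 (13810).

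Gm4841 (ENSMUSG00000068606), a predicted gene of the same family with no settled function, lies 102762 bases from Iigp1 on chromosome 18. It had the lowest counts of the 10 in the Cal-headed libraries, at 24, 7.51 and 52.1, and these rest on 26, 8 and 61 reads. In the Model-headed libraries its counts were 4493, 14223 and 3085. The groups were thus 59.2 times apart at their nearest points, and the ratio of the means was 261. The log2 fold change of -8.02 (SE 0.75) was the third lowest of the 4288 genes. It was -7.32 without Cal 2, -7.38 without Model 2 and -8.64 without Cal 3. Iigp1 exceeded Gm4841 by 89.3, 187 and 72 times in the Cal-headed libraries and by 7.51, 3.94 and 4.48 times in the Model-headed ones, so the pair of neighbours did not keep their ratio between the groups.

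Irgm1, Irgm2 and Igtp are the regulators of the family, which sit on the cell's own membranes and hold effectors such as Iigp1 inactive there. Irgm1 (ENSMUSG00000046879) stood at 1048, 918 and 2559 in the Cal-headed libraries and at 10133, 17961 and 10350 in the Model-headed ones. Its log2 fold change was -3.19 (SE 0.41). Irgm2 (ENSMUSG00000069874) stood at 1361, 1087 and 2863 against 10432, 15062 and 8892. Its log2 fold change of -2.79 (SE 0.37) was the smallest difference of the 10. Igtp (ENSMUSG00000078853) stood at 657, 380 and 1339 against 13235, 21717 and 13601. Here the groups were 9.88 times apart at their nearest points, and the log2 fold change was -4.50 (SE 0.44).

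Igtp and Irgm2 cannot be read as fully separate. By the deposited coordinates Igtp spans positions 58199556 to 58207591 and Irgm2 positions 58199618 to 58222782 of chromosome 11, both on the plus strand, so they overlap by 7974 bases and reads in shared exons could be given to either. The count of Igtp divided by that of Irgm2 was 0.482, 0.35 and 0.468 in the Cal-headed libraries and 1.27, 1.44 and 1.53 in the Model-headed ones. The order of the pair was therefore Irgm2 above Igtp in the first 3 libraries and Igtp above Irgm2 in the other 3.

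Among the guanylate-binding proteins, Gbp2 coats the vacuoles of intracellular parasites and bacteria. Its normalised read counts were 919, 941 and 2277 in the Cal-headed libraries and 25287, 42016 and 20190 in the Model-headed ones. The groups were 8.87 times apart at their nearest points, and the log2 fold change of -4.47 (SE 0.41) lay next to that of Igtp. Gbp2 (ENSMUSG00000028270) had 2516 bases of gene length in the table, the shortest of the 5 guanylate-binding proteins.

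Gbp5, which helps the Nlrp3 inflammasome to assemble, stood at 905, 1322 and 2579 against 12288, 22288 and 9137. Its log2 fold change was -3.22 (SE 0.44). Gbp3 (ENSMUSG00000028268), of the same chromosome cluster, stood at 1322, 629 and 2576 against 10017, 17145 and 6521, with a log2 fold change of -3.01 (SE 0.53). The 3 libraries of each group varied by more than in Irgm2, with a coefficient of variation of 65.4% for Gbp3 in the Cal-headed libraries and 48.2% in the Model-headed ones, beside 54.0% and 28.0% for Irgm2.

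Gbp7 (ENSMUSG00000040253), which takes part in bringing the oxidase and autophagy machinery to bacteria, stood at 713, 394 and 1222 against 6871, 10512 and 2045. Its groups were the closest of the 10, with the lowest Model-headed library only 1.67 times the highest Cal-headed one, and its log2 fold change was -2.91 (SE 0.63), or -3.60 without Model 3. Gbp6 (ENSMUSG00000104713), from a second cluster of guanylate-binding protein genes, stood at 295, 217 and 609 against 4421, 7857 and 2764. Its log2 fold change was -3.75 (SE 0.47), and its values had the highest correlation with the mean of the other 9 genes over the 6 libraries (Pearson's r = 0.9995 on the log2 scale, a description, since the group difference sets most of it).

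Divided by the gene length that the table gives, the counts can be set side by side between genes, within limits. Order and rank also depend on how reads were assigned, since Igtp and Irgm2 overlap, some relatives are close copies and the gene models are of the mouse. In the Model-headed libraries the mean normalised count per kilobase was highest for Gbp2 (11592 ± 4538, SD, n = 3) and Iigp1 (11068 ± 6778), followed by Igtp (8004 ± 2371). These 3 lay within each other's range. Every library of Igtp lay above every library of Gbp3, the next gene at 3439 ± 1658. From Gbp3 through Irgm2 (3106), Gm4841 (2561), Irgm1 (2206), Gbp5 (2195) and Gbp7 (1154) down to Gbp6 (842), no gene stood apart from the next. Among the 4288 listed genes, Gbp2 ranked 12 and Iigp1 ranked 13 per kilobase in these libraries.

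In the Cal-headed libraries the order per kilobase was Iigp1 (779 ± 385), Gbp2 (548 ± 309), Irgm2 (480), Gbp3 (462), Igtp (392), Irgm1 (260), Gbp5 (241), Gbp7 (138), Gbp6 (62.8) and Gm4841 (9.82). Only Gbp6 and Gm4841, at the bottom, were neighbours whose ranges did not touch. Iigp1 ranked 170 and Gbp2 ranked 250 of the 4288 listed genes there. Gm4841 moved furthest, from rank 3515 in the Cal-headed libraries to rank 78 in the Model-headed ones.

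The 10 genes together took 3.46%, 4.73% and 2.36% of all normalised counts on the listed genes in the Model-headed libraries, and 0.351%, 0.272% and 0.695% in the Cal-headed ones. Their make-up differed as well. Igtp was 10.1%, 9.66% and 15% of the sum of the 10 in the Model-headed libraries and 7%, 5.21% and 6.75% in the Cal-headed ones. Irgm2 was 7.97%, 6.7% and 9.84% of the sum in the first and 14.5%, 14.9% and 14.4% in the second. Igtp and Irgm2 overlap, so reads of either could have been given to the other. Gm4841 was 3.43%, 6.32% and 3.41% of the sum in the Model-headed libraries and 0.256%, 0.103% and 0.263% in the Cal-headed ones. Iigp1, by contrast, made up 15.3% to 25.8% in the Model-headed libraries and 18.9% to 22.8% in the Cal-headed ones, ranges that overlapped.

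**Figure D2:**
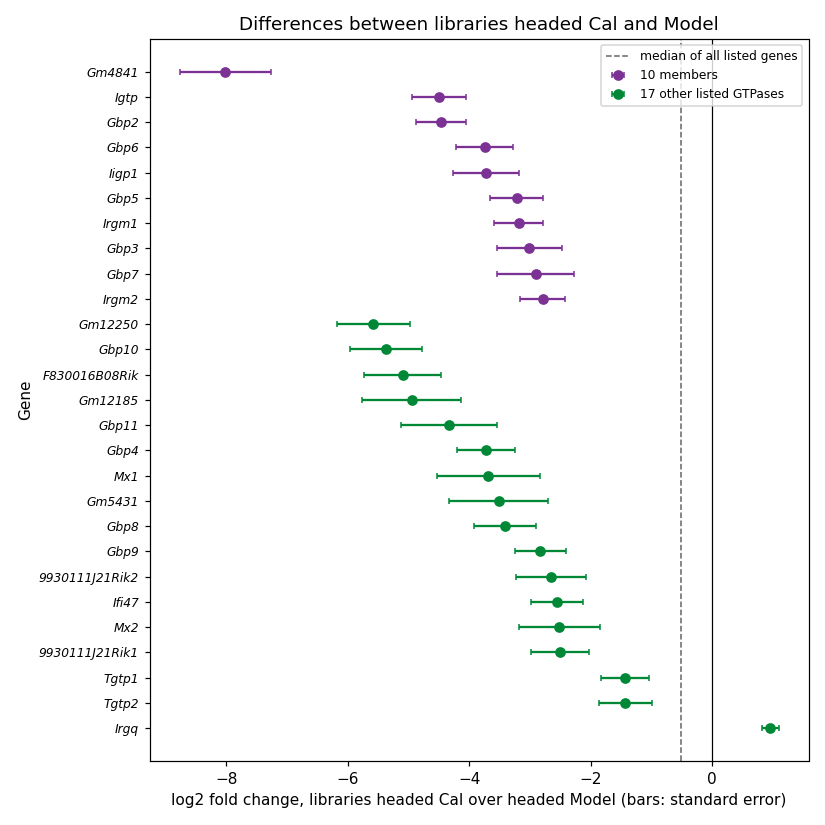
Log2 fold change of Cal-headed libraries over Model-headed libraries, with its moderated standard error as bars, for the 10 members (purple) and the 17 other listed GTPases (green). The dashed line marks the median of all listed genes (-0.52), and Irgq (0.95) is the single gene to the right of 0.

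Within each group the 10 genes moved together from library to library. Library Cal 3 was the highest of its group in 10 of 10 genes, and library Model 2 was the highest of its group in 10 of 10. Over listed genes with a mean of at least 10, Cal 3 was the highest in 39.9% of 3946 genes and Model 2 in 41.3% of 4005. At the low end, Cal 2 was the lowest in 8 of 10 genes and Model 3 in 8 of 10, beside 42.7% and 37.9% of all genes. The exceptions were Gbp2 and Gbp5 in the Cal-headed libraries, where Cal 1 was lowest, and Irgm1 and Igtp in the Model-headed ones, where Model 1 was lowest.

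The spread within a group was wide. The SD of log2(normalised count + 1) over the 3 libraries had a median of 0.78 over the 10 genes in the Cal-headed libraries and 0.68 in the Model-headed ones. Over 4091 genes it was 0.17 and 0.32. The size of each fold change therefore rests on few hearts that differed strongly, and the median log2 fold change of the 10 genes ran from -3.88 without Cal 3 to -3.09 without Model 2.

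**Figure D3:**
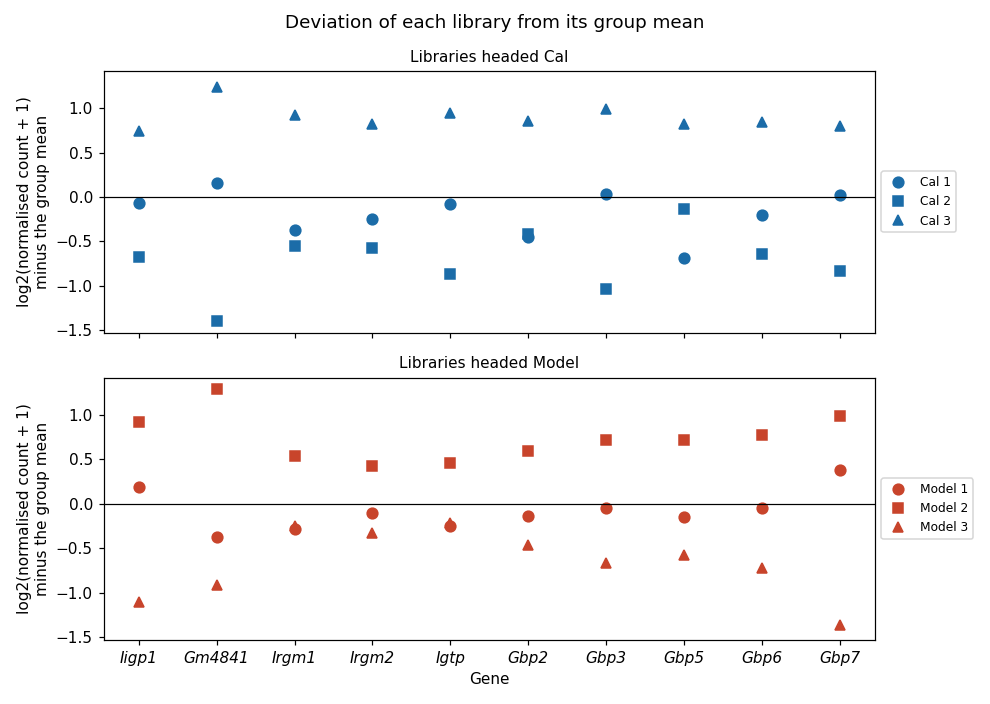
Deviation of each library from its group mean on the log2(normalised count + 1) scale for the 10 genes, with the Cal-headed libraries above and Model-headed ones below and a marker shape for each replicate. Cal 3 (triangles) and Model 2 (squares) lie at the top of their group for all 10 genes.

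Gbp5 was the only one of the 10 listed in the table of model and sham. Its normalised read counts there were 206, 508 and 237 in the Con-headed libraries and 1012, 1482 and 2876 in the Cal-headed ones. Its groups did not overlap, and the log2 fold change of Cal over Con was 2.48 (SE 0.42). As the background, 18% of the genes listed there were called higher in the Cal-headed libraries and 10.9% lower, and the groups did not overlap in 58.8% with Cal above and in 38.5% with Cal below. By the name of the mean column, this is a comparison of the model with sham hearts.

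Because the Cal-headed libraries are in both tables, their values put the Con-headed libraries on the scale of the other table, by a factor of 0.8943 on average (0.8919 to 0.8969 over the 3 libraries). On that scale Gbp5 stood at 184, 454 and 212 in the Con-headed libraries, at 905, 1322 and 2579 in the Cal-headed ones and at 12288, 22288 and 9137 in the Model-headed ones. The means were 283 ± 149, 1602 ± 872 and 14571 ± 6866 (SD, n = 3 each), and the 3 groups did not overlap. The mean of the Model-headed libraries was 51.4 times that of the Con-headed libraries. Both comparisons use the same Cal-headed libraries, and the genes with 9 values are those listed in both tables, so each had passed both of the authors' tests. Among all listed genes, the Cal-headed libraries lay below all Model-headed ones in 52.5% and above all Con-headed ones in 58.8%. The share of genes with all 3 groups in this order was not counted.

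The listed relatives of Gbp5 with 9 values were Ifi47, Tgtp1 and Tgtp2, which are immunity-related GTPases, Mx2, an antiviral GTPase of the dynamin family, and Irgq, a relative that interferon is not known to induce. Ifi47 averaged 119 ± 66.5 in the Con-headed libraries, 544 ± 376 in the Cal-headed ones and 2809 ± 577 in the Model-headed ones. Mx2 averaged 62.8 ± 56.8, 389 ± 348 and 2036 ± 1361. In Gbp5, Ifi47, Tgtp1 and Mx2, 4 of these 6 genes, all Model-headed libraries lay above all Cal-headed ones, and in 6 of 6 all Cal-headed libraries lay above all Con-headed ones. Over the 4288 genes of the first table and the 2458 of the second, these patterns held in 52.5% and 58.8%. The shares among the 986 genes listed in both tables, from which these 6 come, were not counted. Library Con 2 was the highest of its group in 5 of 6, and its share over all listed genes was not counted. Irgq ran another way, at 458 ± 75.5 in the Con-headed libraries, 631 ± 17.3 in the Cal-headed ones and 327 ± 40.6 in the Model-headed ones.

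**Figure D4:**
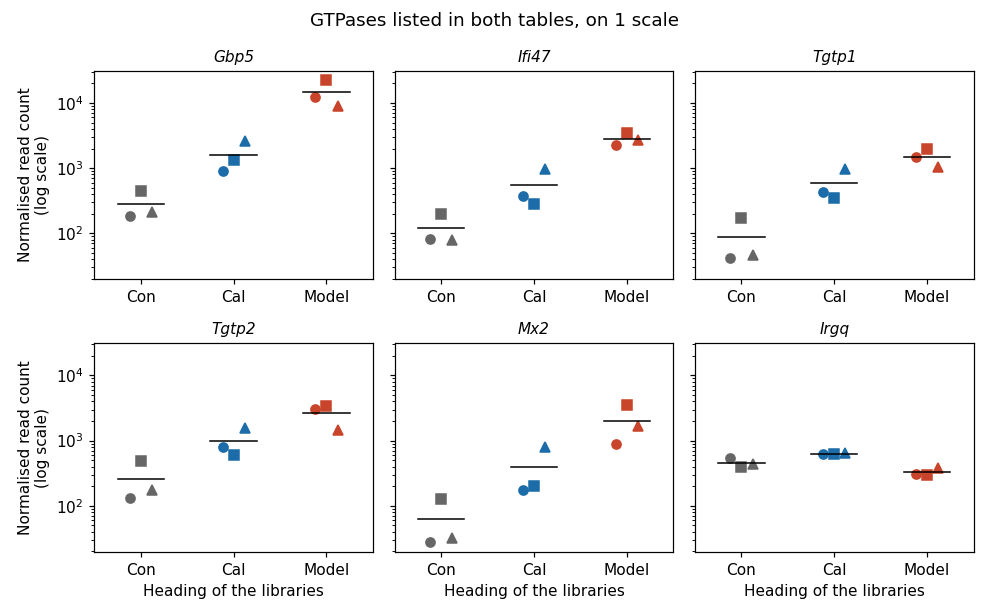
Normalised read count (log scale) of the 6 GTPases listed in both tables, in the 3 libraries each headed Con (grey), Cal (blue) and Model (red), on the scale of the table of Cal and model, with a black bar at each group mean. Gbp5 climbs from a mean of 283 through 1602 to 14571 with no overlap, while Irgq is lowest in the Model-headed libraries.

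Of a list of 22 other GTPases of these families and their relatives, most of them interferon-inducible, 17 were listed in the table of Cal and model. Of these, 16 were called lower in the Cal-headed libraries, none was called higher, and the median log2 fold change was -3.41, beside -0.52 over all genes. Irgq was the gene not called, at 0.95 (SE 0.14), and with median-ratio scaling or quantile normalization it was called higher. By the names of the mean columns, the 16 genes were higher in the Cal hearts. The largest differences were in Gm12250, at 73.8, 72.3 and 319 against 4654, 9747 and 4234 (log2 fold change -5.58), and in Gbp10, at 26.8, 11.3 and 57.2 against 1235, 1784 and 638 (-5.37). Tgtp1 (-1.44) and Tgtp2 (-1.43) differed least among the called genes, and in Tgtp2 the groups overlapped. Of the 22, 5 were listed in the table of model and sham and 4 were called higher in the Cal-headed libraries, with log2 fold changes of 2.90 for Tgtp1, 2.61 for Mx2, 2.10 for Ifi47 and 2.03 for Tgtp2. Several of these genes are close copies of each other, so the authors' counting may have split or dropped reads between them.

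The 10 genes lie in clusters on the deposited coordinates, which are of mouse chromosomes and come with no named genome build. Gbp5 (chromosome 3, 142493978 to 142522344), Gbp7, Gbp3 and Gbp2 (to 142638008) follow each other on the plus strand of chromosome 3, with gaps of 7998 bases between Gbp5 and Gbp7, 9877 between Gbp7 and Gbp3, and 47393 between Gbp3 and Gbp2. Gbp6 lies on the minus strand of chromosome 5 (105270702 to 105293698) beside Gbp4, Gbp8, Gbp9, Gbp10 and Gbp11. Irgm1 lies on the minus strand of chromosome 11 (48861968 to 48871683), with Gm5431 15739 bases away and Tgtp1 113644 bases away.

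The genes within 200000 bases of a member were counted by kind. Of the listed neighbours, 13 were other GTPases of that list, and 13 of these were called lower in the Cal-headed libraries. Of 11 listed neighbours that are not on that list, 5 were called lower and 1 higher, beside 31.6% and 28.4% of all listed genes. Absence from the list does not make a gene unrelated to the GTPases, and their kinship was not tested. The 5 were Olfr56 (log2 fold change -5.81), BC023105 (-4.66), Gm4951 (-4.34), Gm5970 (-3.57) and Psme2b (-1.12). BC023105, Gm4951 and Gm5970 lie around Iigp1 and Gm4841 on chromosome 18. The one called higher was Zfp692, a zinc finger gene, at a log2 fold change of 1.35 and 84287 bases from Irgm2. Trim7, 9759 bases from Irgm1, was at 0.82, and Gemin5, 31017 bases from Igtp, at -0.66, and neither was called.

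Promoter sequences could be shown for rat genes of the same symbol, from RefSeq on the build GRCr8, for Gbp2, Gbp5, Gbp6, Gbp7, Igtp and Irgm2, 6 of the 10. The 250 bases before each listed start were searched on both strands for the core of the interferon-stimulated response element, GAAANNGAAA, and for the core of the gamma-activated site, TTCNNNGAA, which reads the same on both strands. The first was found in 5 of the 6 genes and in 3.406% of all 33469 rat windows of that length, and the second in 3 of the 6 and in 7.667% of all windows. Both together were found in Gbp7, Igtp and Irgm2, 3 of the 6, and in 0.43% of all windows. Gbp6 held neither in this window. A match is a run of letters and not a measured binding site.

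The stretches below show the matches in capitals for a pair from each family, 5′ to 3′ on the plus strand, to set the response element alone (Gbp2 and Gbp5) beside both cores together (Igtp and Irgm2). They lie at chr2:234005681-234005720 (Gbp2), chr2:233910928-233910967 (Gbp5), chr10:42874918-42874968 (Igtp) and chr10:42889842-42889892 (Irgm2) of GRCr8.
Gbp2: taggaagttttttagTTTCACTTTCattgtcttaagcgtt
Gbp5: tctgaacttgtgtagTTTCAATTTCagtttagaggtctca
Igtp: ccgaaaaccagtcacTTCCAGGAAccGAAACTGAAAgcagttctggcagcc
Irgm2: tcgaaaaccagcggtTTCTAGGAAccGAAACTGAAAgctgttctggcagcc

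In Gbp2 and Gbp5 the response element core is on the minus strand, so it appears here as its reverse complement. In Igtp and Irgm2 the gamma-activated site core and the response element core stand next to each other in the same order. The shown stretches of Igtp and Irgm2 have the same base at 44 of 51 positions (86.3%) and the same letters in the response element core. The rat sequences are not those of the mouse genes on which the reads were counted.

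The names and identifiers bear on how the reads were counted. All 4288 identifiers in the table of Cal and model are mouse Ensembl identifiers, and the submitters' processing notes name the mouse builds mm8 and mm9, while the methods of the study name a rat reference. Of the 10 genes, 7 have a rat gene of the same symbol in RefSeq (Irgm2, Igtp, Gbp2, Gbp3, Gbp5, Gbp6 and Gbp7), and Iigp1, Gm4841 and Irgm1 do not. Most of the 10 symbols thus exist in the rat as well. Of the 17 other listed GTPases, 5 (29.4%) have a rat gene of the same symbol, and so do 3693 of 4001 (92.3%) protein-coding genes listed with them. A symbol shared or not shared is a matter of naming and does not say which genes are the same by descent, and the species that the reads came from was not tested.

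Other genes of the interferon pathway, which need not lie upstream of the GTPases, were read from lists. The background is the same, with 31.6% called lower and 28.4% called higher. Of 15 interferons, receptors and Jak kinases, 5 were listed in the table of Cal and model, 2 were called lower in the Cal-headed libraries and 1 higher. Jak2, a kinase bound to the interferon-gamma receptor, had a log2 fold change of -1.61, and Ifnar2, a chain of the type I interferon receptor, of -1.03. Ifnb1, which encodes interferon beta, was the one called higher, but it rests on few reads, with normalised counts of 24, 0.939 and 52.1 in the Cal-headed libraries and 0, 1.22 and 0 in the Model-headed ones, which overlap. Without library Cal 1, this list had 1 gene called lower and 0 called higher. Ifng, which encodes interferon gamma, was not listed in either table.

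Of 12 transcription regulators of the interferon response, the Stat and Irf factors with Nlrc5, Ciita and Batf2, 8 were listed and 8 were called lower in the Cal-headed libraries. They included Stat2 (-2.29) and Irf7 (-3.14), and also Nlrc5 (-3.99), which drives major histocompatibility class I genes, and Batf2 (-4.70), a leucine zipper factor. Batf2 stood at 24.9, 9.39 and 91.4 against 651, 917 and 727. The table of model and sham listed 3 of the 12, and 3 were called higher in the Cal-headed libraries, namely Irf1 (3.76), Irf8 (1.52) and Irf5 (1.34). Irf1 stood at 372, 635 and 402 in the Con-headed libraries and at 6408, 4776 and 7748 in the Cal-headed ones, and it was not listed in the table of Cal and model.

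Of 13 inhibitors of interferon signalling, 7 were listed in the table of Cal and model, 5 were called lower in the Cal-headed libraries and 1 higher. Usp18 (-3.50), which blocks the type I receptor, and Socs1 (-2.44), which blocks Jak kinases, were among the first, and Cish (1.12) was the one called higher. The table of model and sham listed 6, of which 2 were called higher in the Cal-headed libraries, Socs3 (5.12) and Socs1 (3.16), with none called lower. Socs1 stood at 17.5, 24.6 and 17.2 in the Con-headed libraries, at 105, 163 and 348 in the Cal-headed ones and at 699, 1046 and 1333 in the Model-headed ones on the common scale, so its groups were in the order seen for Gbp5.

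Of 19 cytokines and receptors that induce or carry the Th1 response, which raises interferon gamma, 11 were listed in the table of Cal and model and 11 were called lower in the Cal-headed libraries. Cxcl11 (-5.99) and Cxcl9 (-4.95), chemokines that interferon gamma induces, had the largest differences of this list, and their relative Cxcl10 was at -2.77. Cxcl9 stood at 529, 443 and 2050 against 27037, 34380 and 15221. Of the 19, the table of model and sham listed 6, and 6 were called higher in the Cal-headed libraries, with Cxcl10 at a log2 fold change of 7.73.

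Genes that act beside the GTPases did not all go one way. The autophagy conjugation system helps to guide these GTPases to vacuoles. Of its 15 genes, 2 were listed in the table of Cal and model and 3 in that of model and sham, and none was called. In the first table the listed genes were at log2 fold changes of -0.62 (Map1lc3b) and -0.43 (Gabarapl1), and those of Cal over Con ran from 0.35 (Gabarapl2) to 0.66 (Map1lc3a). Of 13 inflammasome and pyroptosis genes, 10 were listed in the table of Cal and model, 8 were called lower in the Cal-headed libraries and 2 higher. Zbp1 (-4.35), a sensor of nucleic acids, and Casp4 (-2.29), the caspase that senses lipopolysaccharide, were lower, while Il1b (2.02) and Nlrp3 (1.20) were higher. Against sham, 3 were listed and 3 were called higher in the Cal-headed libraries, with Il1b at 6.55, Nlrp3 at 5.52 and Casp4 at 2.93.

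The 5 genes outside these lists whose log2 values were most like the mean of the 10 over the 6 libraries of Cal and model were Olfr56 (r = 0.9991), Ifi204 (r = 0.9987), Trir (r = 0.9985), Stard5 (r = 0.9976) and Slfn4 (r = 0.9974). Olfr56 stood at 17.5, 8.45 and 40.1 against 1040, 2291 and 534. Its deposited span on the plus strand of chromosome 11 (48978889 to 49135387) holds the whole of Ifi47 on the same strand, and of Tgtp1, Tgtp2 and 9930111J21Rik2 on the other, so reads of these GTPases could have been given to it and its likeness is uncertain. Likeness here is of shape and not of size, since Trir differed by a log2 fold change of -0.42 only. Of 3277 genes considered, 445 were at least as like as the least like of the 10, which was Gbp7 at 0.9559, and the difference between the groups sets most of these values.

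Markers of cell types were read beside the same backgrounds, 31.6% called lower and 28.4% higher in the table of Cal and model, and 10.9% and 18% in that of model and sham. In bulk tissue, fewer cells of a type and less RNA per cell cannot be told apart. Of 16 T cell and natural killer cell markers, 4 were listed in the table of Cal and model (Lck, Klrk1, Gzma and Gzmb) and 4 were called lower in the Cal-headed libraries, and their summed normalised count was 6.46 to 12.2 there and 107 to 241 in the Model-headed libraries. Of 10 neutrophil markers, 7 were listed and 7 called lower, with sums of 77.5 to 247 against 888 to 1100, and Mpo was at 0 in all 3 Cal-headed libraries. Of 12 macrophage and monocyte markers, 10 were listed, 3 called higher and 4 lower, with sums of 6985 to 7437 against 3924 to 5129. The lymphocyte and neutrophil sums, over the listed markers only, were lower in the Cal-headed libraries, as the GTPases were. The lymphocyte sum rests on few reads in the Cal-headed libraries, 0 to 8 per gene and library. Lck had the largest mean of its 4 genes in the Model-headed ones (91.6 ± 58.8, SD, n = 3). The macrophage sum was higher in the Cal-headed libraries, but it was mostly Lyz2 (3930 ± 95.8 there, SD, n = 3). Of the 10 listed macrophage and monocyte genes, 5 were higher and 5 lower, with a median log2 fold change of 0.12. Cd163 (1.66), Csf1r (1.56) and Lyz2 (1.26) were the 3 called higher. Ly6c2 (-5.33), Fcgr1 (-2.99), Itgam (-1.83) and Ccr2 (-1.56) were the 4 called lower.

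Of 10 endothelial markers, 9 were listed, 5 were called higher in the Cal-headed libraries and none lower, with sums of 14327 to 17529 against 6588 to 8364. Of 10 fibroblast markers, 4 were listed and 2 were called higher, with sums of 17378 to 21126 against 15696 to 22941. None of the 12 cardiomyocyte markers was listed in the table of Cal and model. In the table of model and sham, the listed and called genes were 3 of 12 macrophage markers with 1 higher and 1 lower in the Cal-headed libraries, 2 of 10 neutrophil markers with 2 higher, 7 of 10 endothelial markers with 2 lower, 4 of 10 fibroblast markers with 1 lower and 4 of 12 cardiomyocyte markers with none called. No T cell or natural killer cell marker was listed there. The part of these cell types in the values of the GTPases was not tested.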

How the data were processed

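Cardiac poly(A) RNA of 9 rats was sequenced, with 3 libraries in each of 3 groups. The authors counted reads per gene, and the deposited values are a signal, namely counts divided by 1 size factor per library, normalised separately in 2 tables of genes at a deposited adjusted p-value of up to 0.04988 and 0.04996. The submitters' processing notes name Bowtie 0.12.2, mm8 and mm9. The strand setting is not given in the sources used here. The deposited fold changes and p-values were not used.

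Multiplying by the size factors gave back whole reads for 100% of values (tolerance 0.01). Values were fitted on log2(value + 1) in limma 3.58.1 (R 4.3.3), with Benjamini-Hochberg adjustment within each table, after a check on simulated data. As alternatives, the recovered reads were fitted by DESeq2 1.42.0 and by edgeR 4.0.16, the scaling was changed (median-ratio, quantile), and pseudocounts of 0.1 and 10, a minimum mean of 10, an adjusted p below 0.01, no fold limit, a replicate block and the loss of each library were tried. With 3 libraries against 3 an exact test cannot go below 0.1. Nothing beyond the animal separates replicates, so the spread is that between these libraries. The genes and lists were chosen with earlier results of these data known. Named genes were all members, up to 4 genes per list with the largest log2 fold changes in either table and a mean of at least 10, and the 5 most like the members at a mean of at least 100. Genes named beyond that rule (single neighbours, Ifi47, Tgtp2, Mx2, Irgq and single list genes) were chosen after their values were seen.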

Additional observations from a re-analysis of the deposited data

How the results depend on the processing

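All 10 genes stayed lower in the Cal-headed libraries than in the Model-headed ones under each alternative run, and their median log2 fold change ran from -3.88 to -2.77, against -3.47 as reported. The lowest size came with quantile normalization, where Gbp2 moved from -4.47 to -3.72. Without a fold change limit, 4272 of 4288 genes were called in the table of Cal and model instead of 2575, and 2454 of 2458 in that of model and sham instead of 712, because the tables hold only genes that had passed a test. Leaving out 1 library in turn gave 2344 to 2704 and 679 to 775 calls, and medians of the 10 genes from -3.88 to -3.09. The log2 fold change of Gbp5, Cal over Con, ran from 2.07 to 2.88.

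Other scalings moved the median over all genes. In the table of Cal and model it was -0.52 as reported, -0.23 with median-ratio scaling and -0.10 with quantile normalization, and the genes called higher and lower in the Cal-headed libraries changed from 1219 and 1356 to 1646 and 1047, and to 1407 and 1180. In the table of model and sham the median was 0.37, 0.09 and -0.04, and the calls changed from 443 and 269 to 342 and 447, and to 346 and 390. Under both scalings Irgq was called higher in the Cal-headed libraries in the first table. The list of interferons, receptors and Jak kinases went from 3 calls to 1 without Cal replicate 1, and from 1 call to 0 with quantile normalization in the table of model and sham. Without division by length, the order of 5 of the 10 genes changed in the Cal-headed libraries and of 7 in the Model-headed ones.

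Replicate numbers belong to different animals and same-numbered libraries did not deviate together (correlations from -0.12 to 0.11 and from -0.14 to -0.02). With the replicate number as a block, 2574 and 713 genes were called and the median of the 10 genes was -3.47. A median over members in the table of model and sham was not computed, because only Gbp5 is listed there.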
